A study of Mus musculus with 30 samples.

Results

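The 10 genes described here are Timp1 and 9 matrix metalloproteinase genes: Mmp2, Mmp3, Mmp7, Mmp9, Mmp10, Mmp11, Mmp12, Mmp13 and Mmp14. They were picked by name from a table of read counts for 33924 genes, measured by RNA-seq in mouse thyroid, and all 10 were in that table. A filter on low counts kept 19016 genes for testing, and 9 of the 10 passed it; Mmp7 did not. The series asked how loss of a subunit of SWI/SNF, a complex that moves nucleosomes, alters thyroids that carry mutant Braf and their response to a MEK inhibitor. The inhibitor is CH5126766, called CKI in the labels, a compound that binds MEK and holds it in an inactive complex with RAF.

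In all, 8 of the 10 groups carried Braf(V600E), an allele that keeps the MAPK pathway on. These were Braf(V600E) with Smarcb1 KO, Braf(V600E) with Arid2 KO, Braf(V600E) with Arid1a KO, and Braf(V600E) alone, each after CKI or after vehicle for 8 days, with death about 2 h after the last dose. The remaining 2 groups, Arid1a KO without the Braf allele and wild type, had no treatment. Each group held 3 libraries, except the CKI and vehicle groups of Braf(V600E) with Arid2 KO, which held 2 each; 28 libraries were analysed. The groups are named below as Braf Smarcb1 KO, Braf Arid2 KO, Braf Arid1a KO, Braf, Arid1a KO and wild type. The labels name no Cre driver and give no age, and they do not say that replicates were separate mice, so every p-value here rests on variation from library to library, which may be technical. One protocol text on the labels describes sorted YFP-positive cells and another describes frozen whole thyroids for the wild type, Arid2 and Smarcb1 mice; both texts stand on all samples, so preparation and genotype cannot be told apart between those groups and the rest.

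Matrix metalloproteinases are zinc enzymes that cut the proteins of the extracellular matrix. Most are secreted as inactive precursors, and the TIMP proteins bind the active enzymes and block them. By their substrates, Mmp13 is the main interstitial collagenase of the mouse, Mmp2 and Mmp9 are gelatinases, Mmp3 and Mmp10 are stromelysins, Mmp7 is matrilysin, and Mmp12 is macrophage elastase. Mmp14 sits in the cell membrane and activates the Mmp2 precursor, and Mmp11 is unusual in leaving the cell already active after cleavage by furin. TIMP1 is known as a gene raised in human papillary thyroid cancer with BRAF(V600E). In many cell types, transcription of stromelysin, collagenase and TIMP1 genes is induced through AP-1, the factor built of Fos and Jun proteins, which lies downstream of MAPK signalling.

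Of the 10 genes, 5 (Mmp13, Mmp12, Mmp3, Mmp10 and Mmp7, in that order) lie in 1 cluster on chromosome 9, among the unlisted genes Mmp1b, Mmp1a, Mmp8, Mmp27 and Mmp20. RefSeq promoter windows, which run from 250 bases before to 50 bases after the annotated start on GRCm38.p6, were found for 8 of the 10 genes; those of Mmp2 and Mmp9 were not used here. All windows were searched on both strands for TGANTCA, the letters of an AP-1 site, where N is any base. The 5 genes of the cluster each had 1 match in a window, and Mmp11, Mmp14 and Timp1 had none; of 32851 RefSeq mouse promoter windows, 7.81% held the letters. Counted from the start, the match began at position -35 in Mmp13, -44 in Mmp12, -46 in Mmp3 and -63 in Mmp10 and Mmp7. Mmp12 and Mmp7 each have a further window with no match. A match is only a run of letters, and its absence says only that these letters are not in that window. Other forms of an AP-1 site were not searched for, so a window without a match may still hold one.

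The windows of the 5 genes that were called with CKI in Braf thyroids follow, 5′ to 3′ on the strand of the gene, with the TGANTCA letters in capitals: Mmp10 (chr9:7502092-7502391, plus strand), Mmp12 (chr9:7347124-7347423, plus strand) and Mmp13 (chr9:7272264-7272563, plus strand), which have the letters, then Timp1 (chrX:20869916-20870215, plus strand) and Mmp11 (chr10:75932453-75932752, minus strand), which do not. The letters AGGAAG, an ETS core found in 35.4% of all windows, occurred 3 times in Timp1, 2 times in Mmp13 and in none of the other windows shown. TATAAA, found in 13.6% of all windows, occurred once each in Mmp10, Mmp12 and Mmp13, and none of the 3 motifs overlapped another in these windows.
Mmp10: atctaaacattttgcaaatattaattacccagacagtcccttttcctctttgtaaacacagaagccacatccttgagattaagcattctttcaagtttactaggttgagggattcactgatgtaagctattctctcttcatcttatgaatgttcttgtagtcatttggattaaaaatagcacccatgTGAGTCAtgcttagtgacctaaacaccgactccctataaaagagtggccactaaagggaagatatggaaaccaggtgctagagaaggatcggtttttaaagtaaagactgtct
Mmp12: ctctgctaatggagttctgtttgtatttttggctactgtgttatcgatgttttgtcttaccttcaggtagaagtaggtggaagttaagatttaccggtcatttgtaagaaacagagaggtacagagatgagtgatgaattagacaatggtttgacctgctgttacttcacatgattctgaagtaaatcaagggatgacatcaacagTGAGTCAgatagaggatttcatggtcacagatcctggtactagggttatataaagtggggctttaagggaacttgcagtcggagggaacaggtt
Mmp13: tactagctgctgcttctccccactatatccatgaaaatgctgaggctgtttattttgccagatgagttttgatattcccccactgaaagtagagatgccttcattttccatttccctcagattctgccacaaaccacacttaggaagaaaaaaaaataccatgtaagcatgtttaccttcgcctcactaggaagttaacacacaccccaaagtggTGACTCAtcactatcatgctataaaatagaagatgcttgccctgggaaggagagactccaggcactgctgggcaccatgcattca
Timp1: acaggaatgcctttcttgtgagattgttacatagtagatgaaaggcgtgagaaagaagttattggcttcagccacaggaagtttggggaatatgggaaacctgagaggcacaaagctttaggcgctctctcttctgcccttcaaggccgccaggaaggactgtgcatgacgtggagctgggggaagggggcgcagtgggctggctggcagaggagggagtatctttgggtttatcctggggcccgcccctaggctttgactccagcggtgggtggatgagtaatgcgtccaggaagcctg
Mmp11: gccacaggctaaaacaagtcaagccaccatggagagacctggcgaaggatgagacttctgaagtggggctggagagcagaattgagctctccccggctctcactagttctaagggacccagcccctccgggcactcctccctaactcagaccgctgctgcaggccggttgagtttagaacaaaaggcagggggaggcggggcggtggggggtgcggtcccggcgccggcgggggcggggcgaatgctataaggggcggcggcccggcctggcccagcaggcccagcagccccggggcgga

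Libraries held 23879271 to 34400066 counts. Levels are given as CPM, the counts of a gene scaled to the size of its library, which compare 1 gene between libraries but not 2 genes of different length. Smarcb1 was at 11.9 to 47.4 CPM in Braf Smarcb1 KO thyroids with CKI and 2.28 to 17.9 CPM with vehicle, against 187 to 217 CPM in Braf thyroids with CKI and 57.0 to 131 CPM with vehicle. It was also low in Arid1a KO thyroids, at 15.1 to 62.5 CPM, where wild type libraries had 74.8 to 152 CPM. Arid1a was at 25.6 ± 5.70 CPM in Braf Arid1a KO with CKI and 14.4 ± 2.11 CPM with vehicle, against 29.1 ± 7.09 and 21.8 ± 9.67 CPM in Braf (mean ± SD). It was at 24.6 ± 2.80 CPM in Arid1a KO and 34.1 ± 5.98 CPM in wild type. Arid2 was at 20.6 to 27.7 CPM in Braf Arid2 KO with CKI and 15.5 to 37.5 CPM with vehicle, against 20.5 to 29.8 and 7.03 to 19.7 CPM in Braf. The transcripts of these 2 genes were thus still counted in the knockout libraries, and counts over the whole gene do not check those labels. Tg and 5 other thyroid follicular markers were counted in every library, with a summed level of 121 to 211 CPM in Braf Smarcb1 KO thyroids with vehicle, 408 to 1161 CPM in Braf thyroids with vehicle and 60506 to 157999 CPM in wild type.

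Timp1 differed widely among the groups. Its mean was 1846 ± 403 CPM in Braf Smarcb1 KO thyroids with vehicle and 3.10 ± 1.50 CPM in wild type (SD, n = 3 each). Between them, in falling order of the mean, stood Braf vehicle (579 ± 145 CPM), Braf Arid2 KO vehicle (502 ± 124 CPM, n = 2), Braf Smarcb1 KO with CKI (242 ± 123 CPM), Arid1a KO (116 ± 86.1 CPM), Braf with CKI (71.3 ± 30.8 CPM), Braf Arid1a KO vehicle (59.3 ± 5.97 CPM), Braf Arid1a KO with CKI (56.8 ± 42.3 CPM) and Braf Arid2 KO with CKI (51.3 ± 11.3 CPM, n = 2). The 3 libraries of the first group lay above all others, and the 3 wild type libraries lay below all others. Braf vehicle and Braf Arid2 KO vehicle overlapped, and so did the 5 groups from Arid1a KO down to Braf Arid2 KO with CKI.

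Mmp7 was close to absent: 4 counts in all 28 libraries, of which 3 were in Braf Smarcb1 KO with CKI replicate 4 and 1 in wild type replicate 2. Mmp10 was nearly as restricted. It reached 0.770 to 3.0 CPM in Braf Smarcb1 KO vehicle, 1.79 to 12.6 CPM in Braf Arid2 KO vehicle and 3.47 to 8.02 CPM in Braf vehicle libraries, and no library of the other 7 groups was above 0.500 CPM. The 3 groups with Mmp10 are thus Braf-mutant, treated with vehicle and with Arid1a intact.

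**Figure D1:**
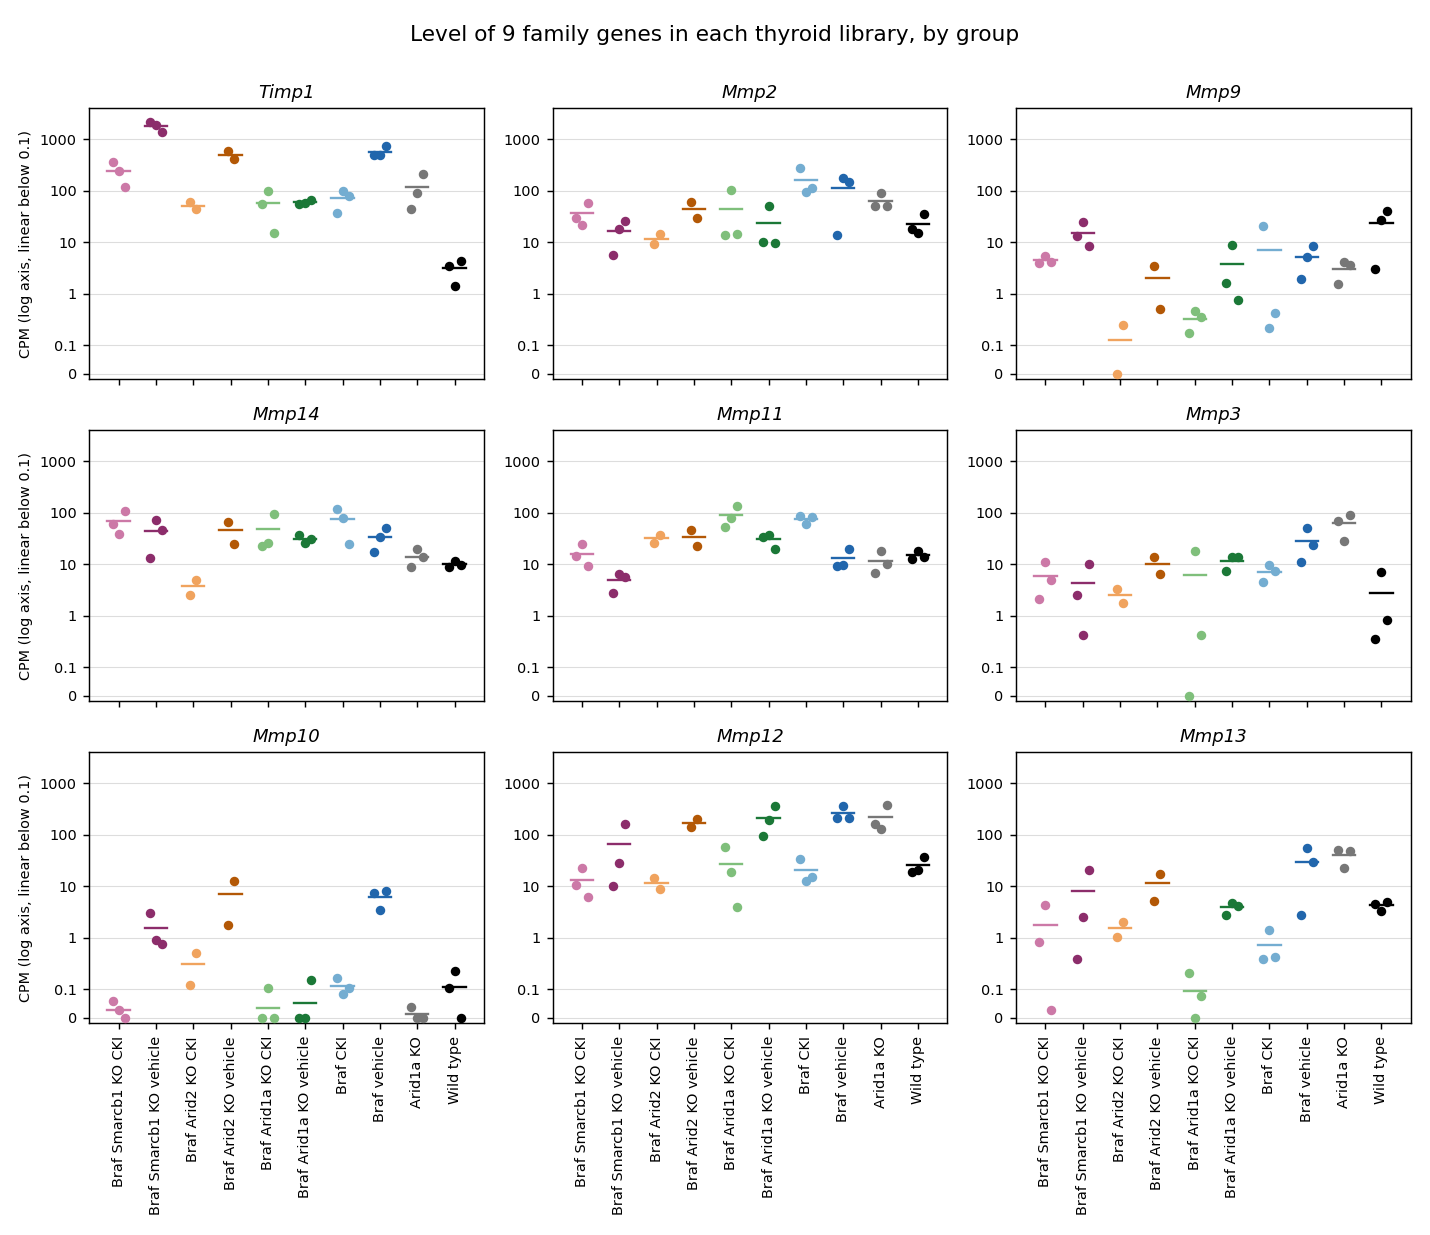
CPM of 9 genes (log axis, linear below 0.1) in 28 libraries, 1 point per library and a line at each group's mean; CKI stands left of vehicle. Timp1 sits at 1415 to 2213 CPM in Braf Smarcb1 KO vehicle and at 1.43 to 4.35 CPM in wild type, and Mmp10 is highest in 3 vehicle groups.

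The first comparison, Braf vehicle against wild type, shows the family in the Braf-mutant thyroid without MEK inhibition. The Braf libraries had 8 days of vehicle and the wild type had none. The allele, vehicle dosing and the preparation of the thyroids cannot be told apart. Timp1, Mmp10 and Mmp12 rose, and none fell, so 3 of the 9 tested genes were called (adjusted p under 0.05), against 20.0% of all genes tested. Timp1, the inhibitor, was at 491, 501 and 746 CPM in Braf vehicle libraries, against 3.52, 1.43 and 4.35 CPM in wild type (log2 fold change 7.54 ± 0.74 (SE), adjusted p = 5.64e-07). The groups were far apart. The stromelysin Mmp10 was at 7.44, 3.47 and 8.02 CPM in Braf vehicle, against 0.105, 0.221 and 0 CPM in wild type (log2 fold change 5.84 ± 1.18 (SE), adjusted p = 0.00119). In wild type that is 9 counts over 3 libraries. Mmp12, the macrophage elastase, was at 209, 362 and 214 CPM in Braf vehicle, against 18.6, 20.7 and 37.6 CPM in wild type (log2 fold change 3.35 ± 0.89 (SE), adjusted p = 0.01). All 3 Braf libraries were above all 3 wild type libraries for each of these genes, and each call held without any 1 library.

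The collagenase Mmp13 and the gelatinase Mmp2 were uneven among the Braf vehicle libraries. Mmp13 was at 2.75, 56.0 and 30.0 CPM in Braf vehicle replicates 2, 4 and 5, against 4.54, 3.34 and 4.96 CPM in wild type (log2 fold change 2.79 ± 1.17 (SE), adjusted p = 0.0956). Mmp2 was at 14.1, 177 and 145 CPM in Braf vehicle, against 17.9, 15.0 and 35.8 CPM in wild type (log2 fold change 2.29 ± 0.86 (SE), adjusted p = 0.0643). Replicate 2 was as low as wild type for both genes. Without it, 5 genes were called, with Mmp2 (2.79, adjusted p = 0.0265) and the membrane-bound Mmp14 (2.08, adjusted p = 0.0471) added. With all libraries Mmp14 was at 17.7, 34.4 and 50.8 CPM in Braf vehicle, against 8.69, 11.5 and 9.70 CPM in wild type (log2 fold change 1.78 ± 0.64 (SE), adjusted p = 0.0526). Mmp3 was at 10.9, 50.3 and 23.6 CPM in Braf vehicle, against 0.349, 7.06 and 0.832 CPM in wild type (log2 fold change 3.37 ± 1.34 (SE), adjusted p = 0.0797). Neither overlapped wild type, and neither was called; Mmp3 was called without Wild type replicate 2 (log2 fold change 5.58, adjusted p = 0.0339). The values of Mmp9 and Mmp11 overlapped between the groups (log2 fold changes -2.19 and -0.19).

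Markers of other cell types moved with the Braf allele as well. Of 10 fibroblast markers 8 rose, with a summed level of 1137 to 24169 CPM in Braf vehicle, where replicate 2 was the lowest; wild type libraries had 802 to 1509 CPM. Of 7 leukocyte markers 3 rose (773 to 1389 CPM in Braf vehicle, 349 to 582 CPM in wild type), and of 9 macrophage markers 1 rose (1062 to 1603 CPM in Braf vehicle, 509 to 1469 CPM in wild type). Other lists went down. Of 10 endothelial markers 9 fell (33.2 to 720 CPM in Braf vehicle, 2031 to 3104 CPM in wild type), and of 6 thyroid follicular markers 5 fell. None of these markers was at 0 in either group. In bulk RNA, fewer cells of a type and less RNA per cell cannot be told apart, and the part of these cells in the levels of Timp1 and the Mmp genes was not tested.

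CKI against vehicle in Braf thyroids asks which of these genes respond to MEK inhibition in the Braf-mutant thyroid. Timp1, Mmp10, Mmp12 and Mmp13 fell and Mmp11 rose, so 5 of 9 genes were called, against 13.0% of all genes tested; the median log2 fold change was -1.98 over the 9 genes and -0.013 over all genes tested. Timp1 was at 37.2, 97.3 and 79.4 CPM with CKI, against 491, 501 and 746 CPM with vehicle (log2 fold change -3.02 ± 0.60 (SE), adjusted p = 0.00444). It stayed above the wild type libraries. Mmp10 was at 0.162, 0.0843 and 0.103 CPM with CKI, against 7.44, 3.47 and 8.02 CPM with vehicle (log2 fold change -5.69 ± 1.17 (SE), adjusted p = 0.0056), which put it at the level of wild type.

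Mmp13 was at 0.389, 1.39 and 0.413 CPM with CKI, against 2.75, 56.0 and 30.0 CPM with vehicle (log2 fold change -5.35 ± 1.34 (SE), adjusted p = 0.0148), and its call was lost without Braf CKI replicate 1 (log2 fold change -5.04, adjusted p = 0.0694). Mmp12 was at 33.5, 12.7 and 15.4 CPM with CKI, against 209, 362 and 214 CPM with vehicle (log2 fold change -3.67 ± 0.90 (SE), adjusted p = 0.0132), and its call was lost without Braf CKI replicate 4 (log2 fold change -3.42, adjusted p = 0.0616). Mmp3 was at 4.61, 9.65 and 7.30 CPM with CKI, against 10.9, 50.3 and 23.6 CPM with vehicle (log2 fold change -1.98 ± 1.26 (SE), adjusted p = 0.315), lower in all 3 libraries but not called. Mmp11, the furin-activated stromelysin, went the other way. It was at 88.5, 61.0 and 81.9 CPM with CKI, against 9.32, 9.77 and 19.8 CPM with vehicle and 12.6, 18.3 and 13.6 CPM in wild type (log2 fold change 2.57 ± 0.47 (SE), adjusted p = 0.00239 against vehicle), above every vehicle and wild type library. Mmp2, Mmp9 and Mmp14 overlapped between CKI and vehicle (log2 fold changes 0.53, 0.45 and 1.12). Within the CKI group, replicate 1 had the highest Mmp9, at 20.6 CPM, against 0.211 and 0.413 CPM in replicates 4 and 5.

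Leukocyte and macrophage markers fell with CKI in Braf thyroids too. All 7 leukocyte markers were called lower, with sums of 153 to 293 CPM with CKI against 773 to 1389 CPM with vehicle, and so were 6 of 9 macrophage markers (177 to 430.2 CPM with CKI, 1062 to 1603 CPM with vehicle). None of the 10 fibroblast markers was called, and 6 of 6 thyroid follicular markers rose (8703 to 21845 CPM with CKI, 408 to 1161 CPM with vehicle). Whether the marked cells carry the change in Mmp12, Mmp13 or Timp1 was not tested.

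**Figure D2:**
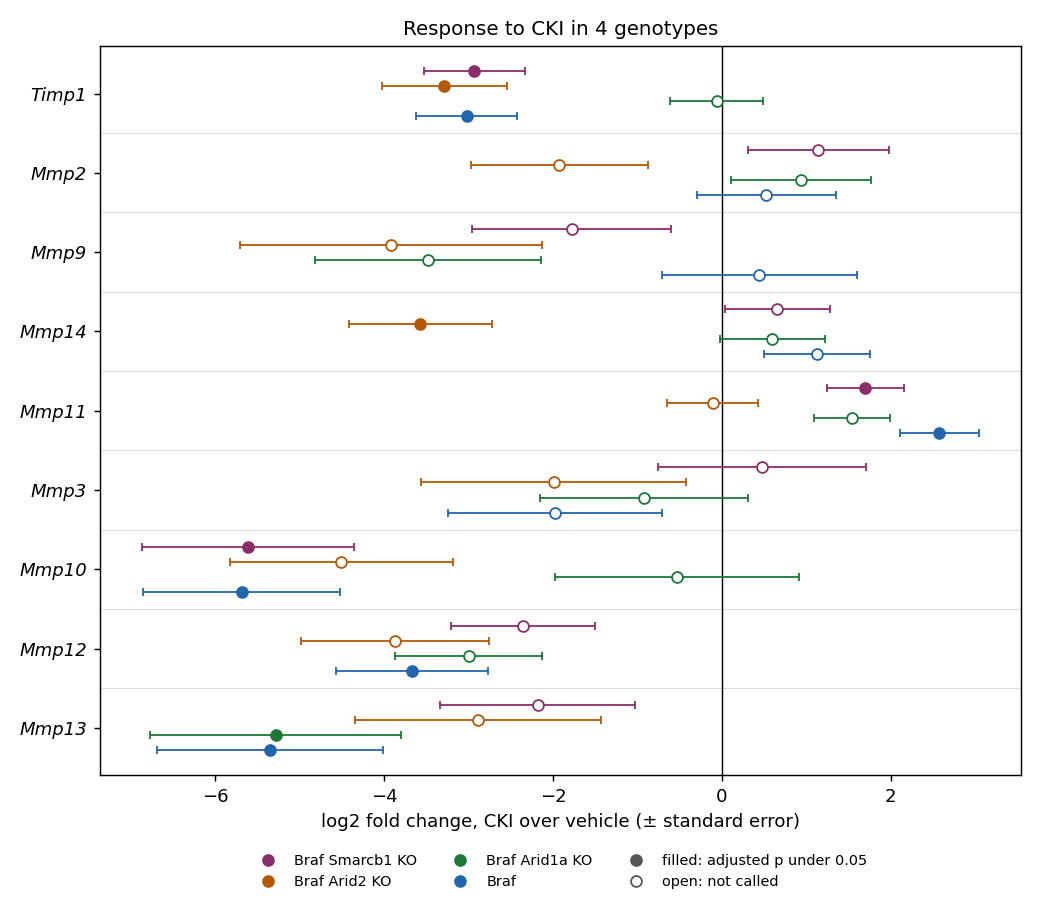
Log2 fold change of CKI over vehicle, ± standard error from the fit, for 9 genes (rows) in 4 genotypes (colours); filled points have an adjusted p under 0.05. Timp1 lies between -3.29 and -2.93 in 3 genotypes and at -0.062 in Braf Arid1a KO, and Mmp14 is at -3.57 in Braf Arid2 KO; 2 libraries per arm stand behind the Braf Arid2 KO points.

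In Braf Arid1a KO thyroids, CKI gave no detectable change in Timp1. Timp1 was at 55.6, 99.7 and 15.2 CPM with CKI, against 54.6, 57.3 and 66.0 CPM with vehicle (log2 fold change -0.062 ± 0.56 (SE), adjusted p = 0.974), and the vehicle libraries were already at the level that CKI gave in Braf thyroids. Of the 9 genes, 1 was called, Mmp13, against 4.51% of all genes tested. Mmp13 was at 0.203, 0 and 0.0776 CPM with CKI, against 2.73, 4.72 and 4.18 CPM with vehicle (log2 fold change -5.29 ± 1.48 (SE), adjusted p = 0.0426); with CKI that is 8 counts over 3 libraries. The call was lost without any 1 of Braf Arid1a KO vehicle replicates 1, 2 and 3 and Braf Arid1a KO CKI replicates 2, 4 and 5 (log2 fold changes -6.54 to -4.72, adjusted p from 0.0666 to 0.132).

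Mmp12 and Mmp11 in Braf Arid1a KO stood next to the threshold. Mmp12 was at 58.4, 19.0 and 3.96 CPM with CKI, against 94.9, 198 and 357 CPM with vehicle (log2 fold change -3.00 ± 0.87 (SE), adjusted p = 0.0502). Mmp11 was at 53.9, 77.6 and 136 CPM with CKI, against 34.2, 37.3 and 20.1 CPM with vehicle (log2 fold change 1.54 ± 0.45 (SE), adjusted p = 0.0513). In neither gene did the groups overlap. Both genes were called without Braf Arid1a KO CKI replicate 2, and Mmp3 was called without Braf Arid1a KO CKI replicate 4 (log2 fold change -5.79, adjusted p = 0.0332). Mmp9 was at 0.169, 0.465 and 0.349 CPM with CKI, against 1.59, 8.80 and 0.758 CPM with vehicle (log2 fold change -3.48 ± 1.34 (SE), adjusted p = 0.139). Mmp10 had 3 counts with CKI and 5 with vehicle, a CKI level 0.641 times that of vehicle (95% counting interval 0.0996 to 3.30), both close to the floor of 3 counts per group. Of 7 leukocyte markers 1 fell (146 to 393 CPM with CKI, 428 to 969 CPM with vehicle). Macrophage markers were called lower for 2 of 9 (61.4 to 530 CPM with CKI, 380 to 1527 CPM with vehicle). The part of these cells in the Mmp12 and Mmp13 values was not tested.

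In Braf Arid2 KO thyroids, with 2 libraries per arm, CKI lowered Mmp14 and Timp1; these 2 of 9 genes were called, against 3.37% of all genes tested. Mmp14, the membrane-bound activator of Mmp2, was at 2.56 and 5.04 CPM with CKI, against 65.7 and 25.0 CPM with vehicle (log2 fold change -3.57 ± 0.85 (SE), adjusted p = 0.0228). The CKI libraries were the lowest 2 of all 28 for this gene. Timp1 was at 59.3 and 43.3 CPM with CKI, against 589 and 414 CPM with vehicle (log2 fold change -3.29 ± 0.74 (SE), adjusted p = 0.0178). Both calls were lost without any 1 of Braf Arid2 KO CKI replicates 3 and 4 and Braf Arid2 KO vehicle replicate 2, with adjusted p from 0.117 to 0.293 for Mmp14 and from 0.112 to 0.179 for Timp1; the library left alone in its arm was then assumed to vary like the other groups.

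Mmp12 and Mmp10 in Braf Arid2 KO missed the threshold. Mmp12 was at 14.6 and 8.90 CPM with CKI, against 141 and 205 CPM with vehicle (log2 fold change -3.88 ± 1.11 (SE), adjusted p = 0.0552). Mmp10 was at 0.118 and 0.500 CPM with CKI, against 1.79 and 12.6 CPM with vehicle (log2 fold change -4.51 ± 1.32 (SE), adjusted p = 0.0592). Mmp11 was at 26.1 and 37.4 CPM with CKI, against 45.8 and 22.7 CPM with vehicle (log2 fold change -0.11 ± 0.54 (SE), adjusted p = 0.948), and its groups overlapped. Mmp2 was at 9.21 and 14.4 CPM with CKI, against 60.6 and 29.1 CPM with vehicle (log2 fold change -1.93 ± 1.05 (SE), adjusted p = 0.296). Mmp13 was at 1.02 and 2.04 CPM with CKI, against 5.21 and 17.6 CPM with vehicle (log2 fold change -2.89 ± 1.46 (SE), adjusted p = 0.258). Both were lower with CKI in every library and were not called. Of 7 leukocyte markers 1 fell (150.1 to 157 CPM with CKI, 514 to 556 CPM with vehicle). Macrophage markers were called lower for 2 of 9 (186 to 204 CPM with CKI, 560 to 564 CPM with vehicle). None of 10 fibroblast markers was called (623 to 789.9 CPM in the CKI arm, 423 to 854 CPM in the vehicle arm). Their part in the Mmp12 and Timp1 values was not tested.

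In Braf Smarcb1 KO thyroids CKI lowered Timp1 and Mmp10 and raised Mmp11, so 3 of 9 genes were called, against 3.85% of all genes tested. Timp1 was at 365, 242 and 118 CPM with CKI, against 2213, 1910.2 and 1415 CPM with vehicle (log2 fold change -2.93 ± 0.60 (SE), adjusted p = 0.0074); the call held without any 1 library, and was missed in a fit on these 2 groups alone (adjusted p = 0.0622). Mmp10 had 3 counts in the CKI libraries and 150 in the vehicle libraries, a level 59.8-fold lower with CKI (95% counting interval 20.1 to 293; log2 fold change -5.62 ± 1.26 (SE), adjusted p = 0.0141), and its call was lost without any 1 of Braf Smarcb1 KO vehicle replicate 1 and Braf Smarcb1 KO CKI replicates 2 and 4 (log2 fold changes -5.58 to -4.72, adjusted p from 0.0574 to 0.0711). Mmp11 was at 14.4, 24.7 and 9.26 CPM with CKI, against 2.76, 6.47 and 5.65 CPM with vehicle (log2 fold change 1.70 ± 0.46 (SE), adjusted p = 0.0377). Its call was lost without any 1 of Braf Smarcb1 KO vehicle replicates 1, 2 and 3 and Braf Smarcb1 KO CKI replicates 1 and 2 (log2 fold changes 1.26 to 1.95, adjusted p from 0.0551 to 0.182).

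Mmp12 and Mmp13 were uneven in the vehicle arm of Braf Smarcb1 KO. Mmp12 was at 10.5, 22.8 and 6.24 CPM with CKI, against 10.3, 27.7 and 164 CPM with vehicle (log2 fold change -2.35 ± 0.85 (SE), adjusted p = 0.129). Mmp13 was at 0.843, 4.40 and 0.0267 CPM with CKI, against 0.386, 2.48 and 21.2 CPM with vehicle (log2 fold change -2.18 ± 1.15 (SE), adjusted p = 0.335). Replicate 3 of the vehicle group held most of both, while the CKI libraries overlapped replicates 1 and 2. That replicate also had the highest macrophage marker sum of its group, 462 CPM, in a range of 253 to 462 CPM; none of 9 macrophage and 7 leukocyte markers was called between CKI and vehicle. Mmp9 was at 3.87, 5.33 and 4.19 CPM with CKI, against 13.1, 24.3 and 8.58 CPM with vehicle (log2 fold change -1.78 ± 1.18 (SE), adjusted p = 0.463). Mmp14 was at 59.7, 38.7 and 109 CPM with CKI, against 13.2, 71.2 and 47.2 CPM with vehicle (log2 fold change 0.66 ± 0.62 (SE), adjusted p = 0.634). Neither was called.

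Whether a subunit changed the response to CKI was tested as a difference of responses. For Braf Arid2 KO minus Braf, 2 of 9 genes were called, against 8.66% of all genes tested: Mmp14 (difference -4.70 ± 1.04 on the log2 scale (SE), adjusted p = 0.0144) and Mmp11 (difference -2.68 ± 0.71 (SE), adjusted p = 0.0241). In the same difference 4 of 10 genes induced by tissue dissociation were called negative (median -3.07, beside 0.00086 over all genes tested), and the part of handling in the Mmp14 and Mmp11 values was not tested. Mmp14 went down with CKI in Braf Arid2 KO but was not called in Braf, and Mmp11 went up in Braf but was not called in Braf Arid2 KO. The Mmp14 call was lost without any 1 of Braf Arid2 KO vehicle replicate 2 and Braf Arid2 KO CKI replicates 3 and 4 (log2 fold changes -5.28 to -3.85, adjusted p from 0.0629 to 0.156). The Mmp11 call was lost without any 1 of Braf CKI replicate 1, Braf Arid2 KO vehicle replicate 2 and Braf Arid2 KO CKI replicates 3 and 4 (log2 fold changes -2.98 to -2.10, adjusted p from 0.0567 to 0.176). For Mmp14 the response also differed from that of Braf Smarcb1 KO by -4.23 ± 1.03 (SE), but the adjusted p of 0.0563 missed the threshold; in that test, added after the levels were seen, 0 of 9 genes were called, against 0.705% of all genes, 3 had an unadjusted p under 0.05, and DESeq2 called 1.

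The response of Timp1 in Braf Arid1a KO differed from that in Braf by 2.96 ± 0.80 on the log2 scale (SE), with an unadjusted p of 0.00122 and an adjusted p of 0.262, so the difference was not called. In edgeR's test 0 of 9 genes were called for this difference, as were 0 of all 19016 genes tested (0%); 3 of the 9 (Timp1, Mmp10 and Mmp9) had an unadjusted p under 0.05, and DESeq2 called 1, Timp1 (difference 3.03, adjusted p = 0.0344). Timp1 was also called without Braf Arid1a KO CKI replicate 5 (log2 fold change 3.41, adjusted p = 0.0398). For Braf Smarcb1 KO minus Braf, edgeR called 0 of 9 genes, against 0.305% of all genes tested; 0 had an unadjusted p under 0.05 and DESeq2 called 0. For Timp1 that difference was 0.09 ± 0.78 (SE).

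Loss of Arid1a in vehicle-treated Braf thyroids lowered Mmp10 and Timp1. These 2 of 9 genes were called, against 9.56% of all genes tested, and both calls held without any 1 library. Timp1 was at 54.6, 57.3 and 66.0 CPM in Braf Arid1a KO, against 491, 501 and 746 CPM in Braf (log2 fold change -3.29 ± 0.61 (SE), adjusted p = 0.00178). The 3 Braf Arid1a KO libraries were within a narrow range, far below Braf. Mmp10 was at 0, 0 and 0.152 CPM in Braf Arid1a KO, against 7.44, 3.47 and 8.02 CPM in Braf (log2 fold change -6.76 ± 1.25 (SE), adjusted p = 0.00185); that is 5 counts against 446. Mmp12 did not share this pattern: it was at 94.9, 198 and 357 CPM in Braf Arid1a KO, against 209, 362 and 214 CPM in Braf (log2 fold change -0.27 ± 0.81 (SE), adjusted p = 0.876), with groups that overlapped.

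Mmp2 was at 10.1, 49.6 and 9.64 CPM in Braf Arid1a KO, against 14.1, 177 and 145 CPM in Braf (log2 fold change -2.28 ± 0.86 (SE), adjusted p = 0.0985). It was called without any 1 of Braf vehicle replicate 2 and Braf Arid1a KO vehicle replicate 2 (log2 fold changes -3.50 to -2.73, adjusted p from 0.0407 to 0.0431). Mmp13 was at 2.73, 4.72 and 4.18 CPM in Braf Arid1a KO, against 2.75, 56.0 and 30.0 CPM in Braf (log2 fold change -2.93 ± 1.18 (SE), adjusted p = 0.12), with Braf replicate 2 at the level of the knockout. Mmp11 was at 34.2, 37.3 and 20.1 CPM in Braf Arid1a KO, against 9.32, 9.77 and 19.8 CPM in Braf (log2 fold change 1.24 ± 0.45 (SE), adjusted p = 0.0844), higher in every library and not called. Fibroblast markers fell: 8 of 10 were called, with sums of 379 to 912 CPM in Braf Arid1a KO against 1137 to 24169 CPM in Braf. Also called lower were 6 of 10 endothelial markers (median log2 fold change -3.27) and 6 of 8 smooth muscle and pericyte markers (median -3.38). Of 7 leukocyte and 9 macrophage markers none was called. The part of the marked cells in the levels of Timp1, Mmp10 and Mmp2 was not tested.

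Loss of Arid2 in vehicle-treated Braf thyroids gave no call: edgeR called 0 of 9 genes, against 3.61% of all genes tested; 1 had an unadjusted p under 0.05 and DESeq2 called 0. That gene was Mmp11, at 45.8 and 22.7 CPM in Braf Arid2 KO, against 9.32, 9.77 and 19.8 CPM in Braf (log2 fold change 1.40 ± 0.49 (SE), adjusted p = 0.0987). Timp1 was at 589 and 414 CPM in Braf Arid2 KO, against 491, 501 and 746 CPM in Braf (log2 fold change -0.21 ± 0.62 (SE), adjusted p = 0.888). Mmp10 was at 1.79 and 12.6 CPM in Braf Arid2 KO, against 7.44, 3.47 and 8.02 CPM in Braf (log2 fold change 0.19 ± 1.01 (SE), adjusted p = 0.944). Both overlapped Braf.

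Loss of Smarcb1 raised Timp1 and lowered Mmp2 and Mmp11 in vehicle-treated Braf thyroids. That is 3 of 9 genes called, against 28.6% of all genes tested. Timp1 was at 2213, 1910.2 and 1415 CPM in Braf Smarcb1 KO, against 491, 501 and 746 CPM in Braf (log2 fold change 1.67 ± 0.57 (SE), adjusted p = 0.0308). The groups did not overlap, but the call was lost without any 1 of Braf vehicle replicates 2 and 4 and Braf Smarcb1 KO vehicle replicates 1 and 2 (log2 fold changes 1.50 to 1.66, adjusted p from 0.065 to 0.0967). Mmp11 was at 2.76, 6.47 and 5.65 CPM in Braf Smarcb1 KO, against 9.32, 9.77 and 19.8 CPM in Braf (log2 fold change -1.39 ± 0.46 (SE), adjusted p = 0.0258), below all other vehicle groups and wild type. Its call was lost without any 1 of Braf vehicle replicate 5 and Braf Smarcb1 KO vehicle replicate 1 (log2 fold changes -1.11 to -0.99, adjusted p from 0.106 to 0.133). Mmp2 was at 5.75, 18.4 and 25.5 CPM in Braf Smarcb1 KO, against 14.1, 177 and 145 CPM in Braf (log2 fold change -2.76 ± 0.88 (SE), adjusted p = 0.0221), and Braf replicate 2 lay within the knockout's range. Its call was lost without any 1 of Braf vehicle replicates 4 and 5 and Braf Smarcb1 KO vehicle replicates 1 and 2 (log2 fold changes -2.83 to -2.27, adjusted p from 0.0503 to 0.0847).

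Mmp9 was at 13.1, 24.3 and 8.58 CPM in Braf Smarcb1 KO, against 1.94, 5.06 and 8.57 CPM in Braf (log2 fold change 1.56 ± 1.17 (SE), adjusted p = 0.337), barely above the highest Braf library. Mmp12 was at 10.3, 27.7 and 164 CPM in Braf Smarcb1 KO, against 209, 362 and 214 CPM in Braf (log2 fold change -1.96 ± 0.84 (SE), adjusted p = 0.0829). Without Braf Smarcb1 KO vehicle replicate 3, the library with high Mmp12 and Mmp13, 5 genes were called: Mmp12 (-3.78, adjusted p = 0.00444) and Mmp13 (-4.37, adjusted p = 0.0191) joined, both lower. Macrophage markers fell as well, 7 of 9 called (253 to 462 CPM in Braf Smarcb1 KO, 1062 to 1603 CPM in Braf), as did 7 of 10 fibroblast markers (1616 to 2799 CPM in Braf Smarcb1 KO, 1137 to 24169 CPM in Braf) and 4 of 5 epithelial markers (739 to 2097 CPM in Braf Smarcb1 KO, 5313 to 17175 CPM in Braf). The part of each in the Timp1, Mmp12, Mmp2 and Mmp11 values was not tested. Preparation cannot be told apart from genotype in this comparison.

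**Figure D3:**
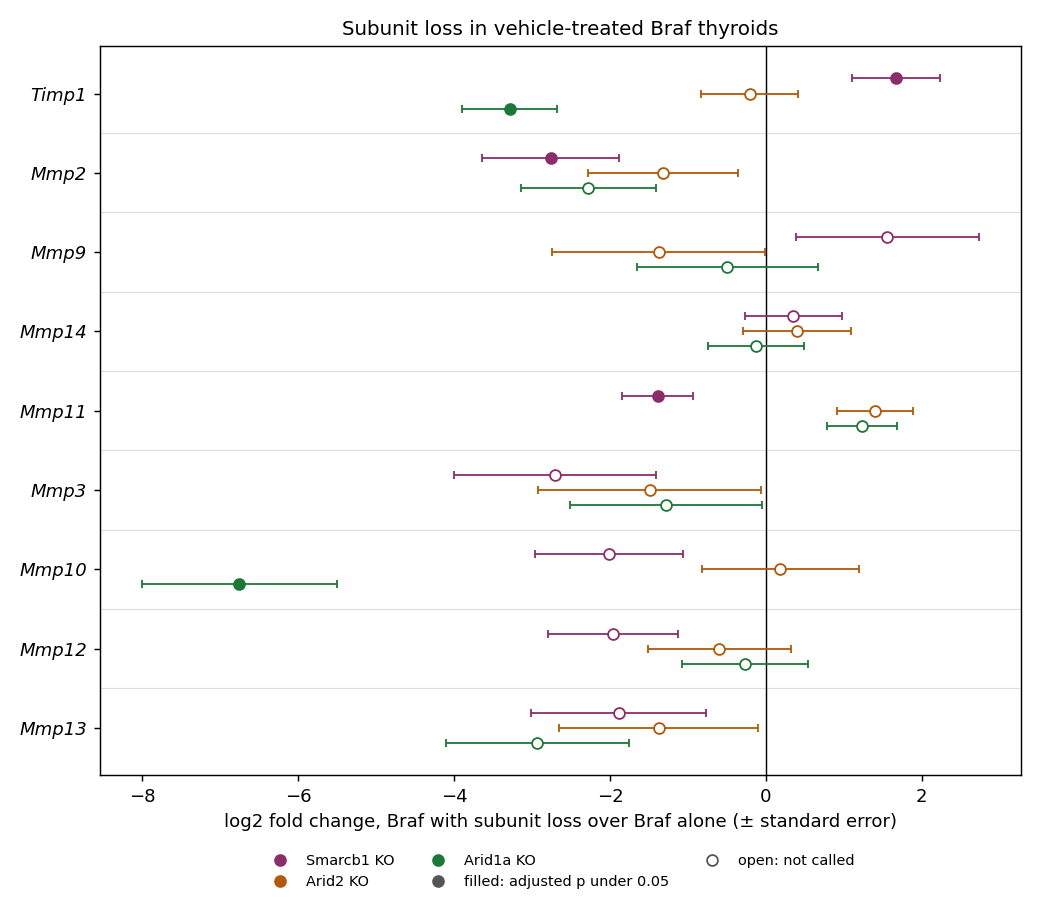
Log2 fold change, ± standard error from the fit, of vehicle-treated Braf thyroids with loss of a subunit over Braf alone, for 9 genes (rows) and 3 subunits (colours); filled points have an adjusted p under 0.05. Timp1 is at 1.67 with Smarcb1 loss, -0.21 with Arid2 loss and -3.29 with Arid1a loss.

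The same genotypes were compared after CKI, where preparation again cannot be told apart from genotype for Arid2 and Smarcb1. In Braf Smarcb1 KO, Timp1 was higher and Mmp11 lower than in Braf, 2 of 9 genes called against 17.1% of all genes tested. Timp1 was at 365, 242 and 118 CPM in Braf Smarcb1 KO with CKI, against 37.2, 97.3 and 79.4 CPM in Braf with CKI (log2 fold change 1.76 ± 0.57 (SE), adjusted p = 0.0357), and its call was lost without any 1 of Braf CKI replicates 1 and 5 and Braf Smarcb1 KO CKI replicates 1 and 2 (log2 fold changes 1.35 to 1.85, adjusted p from 0.0555 to 0.161). The groups did not overlap. Mmp11 was at 14.4, 24.7 and 9.26 CPM in Braf Smarcb1 KO with CKI, against 88.5, 61.0 and 81.9 CPM in Braf with CKI (log2 fold change -2.26 ± 0.46 (SE), adjusted p = 0.00183), a call that held without any 1 library. Mmp9 was not called (log2 fold change -0.67), but without Braf CKI replicate 1 it was called higher (log2 fold change 3.80, adjusted p = 0.0464). Of the markers, 4 of 5 epithelial (761 to 1879 CPM in Braf Smarcb1 KO, 7245 to 8245 CPM in Braf), 7 of 10 endothelial (88.7 to 96.3 CPM in Braf Smarcb1 KO, 170.1 to 656 CPM in Braf) and 5 of 6 thyroid follicular markers (1574 to 2322 CPM in Braf Smarcb1 KO, 8703 to 21845 CPM in Braf) were lower in this comparison. Their part in the Timp1 and Mmp11 values was not tested. In Braf Arid2 KO, Mmp14 was called, 1 of 9 genes against 1.27% of all genes tested. Mmp14 was at 2.56 and 5.04 CPM in Braf Arid2 KO with CKI, against 119, 80.6 and 24.3 CPM in Braf with CKI (log2 fold change -4.29 ± 0.85 (SE), adjusted p = 0.015), and the call was lost without any 1 of Braf CKI replicate 1 and Braf Arid2 KO CKI replicates 3 and 4 (log2 fold changes -4.87 to -3.78, adjusted p from 0.0551 to 0.358). In Braf Arid1a KO edgeR called 0 of 9 genes, against 2.30% of all genes tested, 2 had an unadjusted p under 0.05 (Mmp9 and Mmp2), and DESeq2 called 1, Mmp9. Mmp9 was at 0.169, 0.465 and 0.349 CPM in Braf Arid1a KO with CKI, against 20.6, 0.211 and 0.413 CPM in Braf with CKI (log2 fold change -4.42). That difference rests on Braf CKI replicate 1, without which the log2 fold change was 0.049. Timp1 was at 55.6, 99.7 and 15.2 CPM in Braf Arid1a KO with CKI, against 37.2, 97.3 and 79.4 CPM in Braf with CKI (log2 fold change -0.33 ± 0.56 (SE), adjusted p = 0.835).

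Without the Braf allele, loss of Arid1a went with more Timp1, Mmp12 and Mmp3. In Arid1a KO against wild type these 3 of 9 genes rose and none fell, against 18.6% of all genes tested. Timp1 was at 44.5, 91.2 and 211 CPM in Arid1a KO, against 3.52, 1.43 and 4.35 CPM in wild type (log2 fold change 5.22 ± 0.67 (SE), adjusted p = 0.000235), and its call held without any 1 library. Mmp12 was at 165, 129 and 385 CPM in Arid1a KO, against 18.6, 20.7 and 37.6 CPM in wild type (log2 fold change 3.14 ± 0.88 (SE), adjusted p = 0.0158). This call was lost without any 1 of Arid1a KO replicate 3 and Wild type replicates 1 and 2 (log2 fold changes 2.57 to 3.04, adjusted p from 0.0559 to 0.0846). The stromelysin Mmp3 was at 70.6, 27.8 and 91.6 CPM in Arid1a KO, against 0.349, 7.06 and 0.832 CPM in wild type (log2 fold change 4.53 ± 1.41 (SE), adjusted p = 0.0282); replicate 2 was the highest of wild type, and the call was lost without any 1 of Arid1a KO replicates 1 and 3 and Wild type replicates 1 and 3 (log2 fold changes 4.06 to 4.50, adjusted p from 0.0632 to 0.102). Mmp13 was at 51.0, 22.7 and 48.1 CPM in Arid1a KO, against 4.54, 3.34 and 4.96 CPM in wild type (log2 fold change 3.24 ± 1.19 (SE), adjusted p = 0.0596), higher in every library and called without Arid1a KO replicate 2 (log2 fold change 3.57, adjusted p = 0.0447). Mmp10 had 1 count in Arid1a KO and 9 in wild type.

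Markers of leukocytes, macrophages and fibroblasts were high in the same 3 Arid1a KO libraries. All 7 leukocyte markers rose (2203 to 3853 CPM in Arid1a KO, 349 to 582 CPM in wild type), as did 7 of 9 macrophage markers (3486 to 7768 CPM in Arid1a KO, 509 to 1469 CPM in wild type) and 6 of 10 fibroblast markers (10198 to 14262 CPM in Arid1a KO, 802 to 1509 CPM in wild type). None of them was at 0 in either group. Their part in the levels of Timp1, Mmp3, Mmp12 and Mmp13 was not tested, and the preparation of Arid1a KO and wild type thyroids cannot be told apart from genotype.

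The effect of Arid1a loss with the Braf allele was set against that without it, in a test added after the levels were seen; the comparison uses vehicle-treated thyroids with the allele and untreated thyroids without it. The difference was called for 5 of 9 genes, in each case negative, against 22.2% of all genes tested. It was -8.50 ± 0.90 on the log2 scale (SE, adjusted p = 2.17e-05) for Timp1 and -6.18 ± 1.67 (SE, adjusted p = 0.0112) for Mmp13. Both calls held without any 1 library. Timp1 was lower in Braf Arid1a KO than in Braf, and higher in Arid1a KO than in wild type. Mmp3 (-5.81 ± 1.85, adjusted p = 0.0273), Mmp2 (-3.77 ± 1.20, adjusted p = 0.0274) and Mmp12 (-3.41 ± 1.17, adjusted p = 0.0397) were also called. The Mmp3 call was lost without any 1 of Braf vehicle replicate 4, Braf Arid1a KO vehicle replicates 1, 2 and 3, Arid1a KO replicate 3 and Wild type replicates 1 and 3 (log2 fold changes -5.94 to -5.18, adjusted p from 0.0512 to 0.0656). For Mmp2 it was lost without any 1 of Braf vehicle replicate 4, Braf Arid1a KO vehicle replicates 1 and 3 and Wild type replicates 1 and 2 (log2 fold changes -3.69 to -3.33, adjusted p from 0.054 to 0.0698). For Mmp12 it was lost without any 1 of Braf vehicle replicate 4, Braf Arid1a KO vehicle replicates 1 and 2, Arid1a KO replicate 3 and Wild type replicates 1 and 2 (log2 fold changes -3.35 to -2.80, adjusted p from 0.0751 to 0.119). Markers of several cell types moved the same way in this difference, and others did not. Of 6 thyroid follicular markers 2 were called positive and none negative (median 1.52). Of 5 epithelial markers 1 was called positive and 1 negative (median 0.99). Called negative were 10 of 10 fibroblast markers (median -6.32), 7 of 9 macrophage (median -3.32), 6 of 7 leukocyte (median -3.59) and 4 of 10 endothelial markers (median -2.40), beside a median of 0.017 over all genes tested. Of 10 genes induced by tissue dissociation, 5 were called positive (median 1.63). The part of these cells, of handling and of the low Smarcb1 in Arid1a KO in the differences of the 5 genes was not tested.

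**Figure D4:**
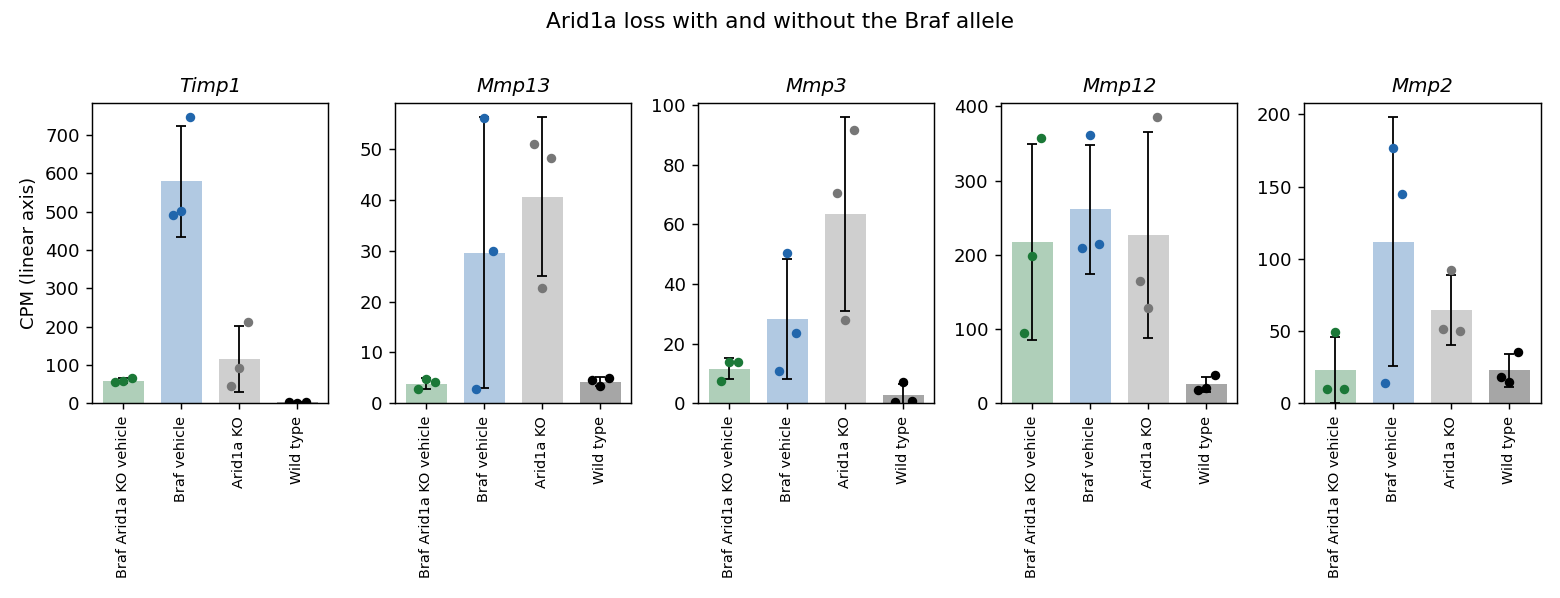
CPM (linear axes from 0, a scale per gene) of 5 genes in Braf Arid1a KO vehicle, Braf vehicle, Arid1a KO and wild type; bars are means of 3 libraries, error bars are SD and points are libraries. Timp1 averages 59.3 ± 5.97 CPM in Braf Arid1a KO and 579 ± 145 CPM in Braf, and 116 ± 86.1 CPM in Arid1a KO and 3.10 ± 1.50 CPM in wild type.

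Set directly against Arid1a KO, Braf Arid1a KO with vehicle had more Mmp11 and less Mmp13, 2 of 9 genes called against 40.5% of all genes tested. The Braf Arid1a KO libraries had 8 days of vehicle and Arid1a KO had none, so the allele and dosing cannot be told apart. Mmp11 was at 34.2, 37.3 and 20.1 CPM in Braf Arid1a KO, against 6.89 to 18.4 CPM in Arid1a KO (log2 fold change 1.38 ± 0.45 (SE), adjusted p = 0.0185). Mmp13 was at 2.73, 4.72 and 4.18 CPM in Braf Arid1a KO, against 51.0, 22.7 and 48.1 CPM in Arid1a KO (log2 fold change -3.39 ± 1.20 (SE), adjusted p = 0.0279). Neither gene overlapped between the groups. The Mmp11 call was lost without any 1 of Braf Arid1a KO vehicle replicates 1 and 2 and Arid1a KO replicates 1 and 3 (log2 fold changes 1.05 to 1.29, adjusted p from 0.0606 to 0.11). The Mmp13 call was lost without any 1 of Braf Arid1a KO vehicle replicates 1, 2 and 3 and Arid1a KO replicates 1 and 3 (log2 fold changes -3.55 to -3.24, adjusted p from 0.0551 to 0.0859). Timp1 was at 54.6, 57.3 and 66.0 CPM in Braf Arid1a KO, against 44.5, 91.2 and 211 CPM in Arid1a KO (log2 fold change -0.96 ± 0.56 (SE), adjusted p = 0.177). Mmp2 was not called with all libraries (log2 fold change -1.48, adjusted p = 0.167). It was called lower without Braf Arid1a KO vehicle replicate 2 (log2 fold change -2.71, adjusted p = 0.0339). Markers of macrophages fell in this comparison (9 of 9; 380.2 to 1527 CPM in Braf Arid1a KO, 3486 to 7768 CPM in Arid1a KO), as did those of fibroblasts (9 of 10; 379 to 912 CPM in Braf Arid1a KO, 10198 to 14262 CPM in Arid1a KO). So did 5 of 7 leukocyte and 9 of 10 endothelial markers. Of 5 epithelial markers 3 rose (7168 to 8432 CPM in Braf Arid1a KO, 839.7 to 2499.7 CPM in Arid1a KO), and so did 5 of 10 genes induced by tissue dissociation. Their part in the Mmp13 and Mmp11 values was not tested.

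Other inhibitors of these enzymes shared the direction of Timp1 in some comparisons and not in others. Of Timp2, Timp3, Timp4, Reck and A2m, 2 were called higher and 1 lower in Braf vehicle against wild type, and none in Braf with CKI against vehicle (median log2 fold change -0.28, -0.013 over all genes tested). Timp3, an inhibitor held in the matrix, averaged 113 ± 25.3 CPM in Braf Smarcb1 KO vehicle, against 832 ± 470.2 CPM in Braf vehicle (SD, n = 3 each; log2 fold change -2.88 ± 0.50 (SE), adjusted p = 0.00027), so it fell where Timp1 rose. In Braf Arid1a KO vehicle it averaged 278 ± 28.9 CPM, against the same Braf libraries (log2 fold change -1.58 ± 0.47 (SE), adjusted p = 0.0381), and fell together with Timp1. A2m, a broad protease inhibitor, averaged 19.2 ± 19.3 CPM in Braf vehicle, against 0.330 ± 0.181 CPM in wild type (log2 fold change 5.86 ± 1.32 (SE), adjusted p = 0.00319), where Timp2 rose as well (log2 fold change 1.20, adjusted p = 0.0332). With Arid1a loss in Braf, A2m (-4.64, adjusted p = 0.0203) and Timp4 (-3.88, adjusted p = 0.0455) fell beside Timp1 and Timp3. In Arid1a KO against wild type Timp2 rose (log2 fold change 1.48, adjusted p = 0.0121).

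The plasminogen activator system makes plasmin, which can activate Mmp precursors. In Braf vehicle against wild type 4 of 7 tested genes rose and 0 fell, among them Plaur, the urokinase receptor, at 662 ± 412 CPM in Braf and 85.2 ± 50.6 CPM in wild type (log2 fold change 2.96 ± 0.51 (SE), adjusted p = 0.000317), and Plat, tissue plasminogen activator, at 405 ± 56.9 CPM in Braf and 52.0 ± 15.0 CPM in wild type (log2 fold change 2.96 ± 0.37 (SE), adjusted p = 1.08e-05). With CKI, Plat fell in Braf (-1.19, adjusted p = 0.0304), Braf Arid2 KO (-3.50, adjusted p = 0.00026) and Braf Smarcb1 KO (-1.25, adjusted p = 0.0476), the 3 genotypes in which Timp1 fell. The list as a whole did not follow Timp1. In Braf Arid1a KO, where Timp1 was not called, 3 of 7 genes fell with CKI (median log2 fold change -1.51). This compares with 1 in Braf, 2 in Braf Arid2 KO and 2 in Braf Smarcb1 KO. Plau, urokinase itself, averaged 138 ± 57.9 CPM in Braf Smarcb1 KO vehicle, against 14.6 ± 4.14 CPM in Braf vehicle (log2 fold change 3.23 ± 0.44 (SE), adjusted p = 2.97e-05). It rose there as Timp1 did.

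Of 8 cytokines known to induce Mmp genes or Timp1, 4 rose in Braf vehicle against wild type, and 4 fell with CKI in Braf, 4 in Braf Arid1a KO, 4 in Braf Arid2 KO and 0 in Braf Smarcb1 KO; none rose. Oncostatin M (Osm), an inducer of Timp1, averaged 12.6 ± 7.39 CPM with CKI and 63.1 ± 35.1 CPM with vehicle in Braf (log2 fold change -2.32 ± 0.67 (SE), adjusted p = 0.0275), and 15.5 ± 10.4 CPM with CKI and 78.6 ± 49.0 CPM with vehicle in Braf Arid1a KO (log2 fold change -2.34 ± 0.67 (SE), adjusted p = 0.0465), where Timp1 was not called. Il1a averaged 20.8 ± 9.36 CPM in Braf Smarcb1 KO vehicle, against 133 ± 69.4 CPM in Braf vehicle (log2 fold change -2.68 ± 0.74 (SE), adjusted p = 0.00991), lower where Timp1 was higher.

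Among 13 AP-1 and ETS factors, 3 rose in Braf vehicle against wild type, and with CKI 4 rose and 2 fell in Braf. Etv4, an ETS factor of the PEA3 group that MAPK signalling induces, averaged 2.55 ± 0.529 CPM with CKI and 29.8 ± 2.42 CPM with vehicle in Braf (log2 fold change -3.54 ± 0.63 (SE), adjusted p = 0.0022). Jun averaged 1431 ± 880.3 CPM with CKI and 138 ± 83.9 CPM with vehicle (log2 fold change 3.38 ± 0.76 (SE), adjusted p = 0.00913), so Jun RNA rose in the thyroids where Mmp10, Mmp12 and Mmp13 fell. Jun is also on the list of genes induced by tissue dissociation, of which 5 of 10 rose with CKI in Braf. Fosl1, an AP-1 subunit, averaged 7.09 ± 4.06 CPM in Braf Smarcb1 KO with CKI, against 45.2 ± 10.9 CPM in Braf with CKI (log2 fold change -2.67 ± 0.60 (SE), adjusted p = 0.00384).

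Of 8 genes whose products bind or carry these enzymes, 6 rose in Braf vehicle against wild type. Spp1 (osteopontin, a substrate of several Mmp enzymes) fell with CKI in all 4 genotypes, with log2 fold changes of -5.72 in Braf, -4.53 in Braf Arid1a KO, -8.84 in Braf Arid2 KO and -3.15 in Braf Smarcb1 KO. Bsg, an inducer of Mmp genes also called EMMPRIN, averaged 2942 ± 877 CPM with CKI and 832 ± 444 CPM with vehicle in Braf (log2 fold change 1.82 ± 0.49 (SE), adjusted p = 0.0208), and rose beside Mmp11. Lcn2, which binds Mmp9, averaged 1429 ± 792 CPM in Braf vehicle and 2.97 ± 2.07 CPM in wild type (log2 fold change 8.91 ± 1.18 (SE), adjusted p = 1.78e-05), although Mmp9 itself was not called. Of 14 ADAM and ADAMTS proteinases, 3 rose and 1 fell in Braf vehicle against wild type, and 2 rose with CKI in Braf, with a median log2 fold change over the list of -0.53.

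Across the 28 libraries, the genes whose log2(CPM + 1) was most like that of each member were ranked by Pearson's r, as a description over libraries that share groups. For Timp1 they were Inhba (r = 0.9), Anxa2 (r = 0.884) and Psrc1 (r = 0.864), where Inhba encodes a subunit of activin A. Mmp12 ran with Lilrb4 (r = 0.95), Fcgr2b (r = 0.941) and Pilra (r = 0.938), receptors of myeloid cells, and Mmp2 with Loxl1 (r = 0.883), Fndc1 (r = 0.875) and Podn (r = 0.872), where Loxl1 is an elastin crosslinking enzyme. For Mmp13 they were Ifi205 (r = 0.869), Klrb1b (r = 0.864) and Cd80 (r = 0.852). Mmp11 ran with Scara5 (r = 0.925), Esrp2 (r = 0.915) and Plch2 (r = 0.906), where Esrp2 is an epithelial splicing regulator, and Mmp10 with Prl2c2 (r = 0.941), Ripply1 (r = 0.814) and Nt5e (r = 0.808). For Mmp14 they were Brap (r = 0.886), Rest (r = 0.867) and Uap1l1 (r = 0.864), for Mmp3 Apod (r = 0.829), Pira2 (r = 0.81) and Tspan32 (r = 0.789), and for Mmp9 Chrnb2 (r = 0.754), Col17a1 (r = 0.725) and Ap3b2 (r = 0.722). Among the members themselves the highest r was 0.776, between Mmp12 and Mmp13, and the lowest was -0.46, between Mmp11 and Mmp13. Timp1 and Mmp10 had an r of 0.567.

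Set against marker sums library by library, Mmp12 had its lowest and highest values at the ends of the macrophage marker range. The library with the lowest macrophage sum, Braf Arid1a KO CKI replicate 5 at 61.4 CPM, also had the lowest Mmp12, 3.96 CPM, and the library with the highest sum, Arid1a KO replicate 3 at 7768 CPM, had the highest, 385 CPM. Wild type replicate 3 had a macrophage sum of 1469 CPM with Mmp12 at 37.6 CPM, while Braf vehicle replicate 4 had 1603 CPM with Mmp12 at 362 CPM. For Timp1, the library with the lowest fibroblast sum, Braf Arid1a KO vehicle replicate 1 at 379 CPM, had 54.6 CPM. The library with the highest, Braf vehicle replicate 4 at 24169 CPM, had Timp1 at 501 CPM. Braf Arid2 KO vehicle replicate 4, with a fibroblast sum of 423 CPM, had Timp1 at 414 CPM, and Arid1a KO replicate 1, with 11920.4 CPM, had 44.5 CPM. These are single libraries, and the part of the marked cells in either gene was not tested.

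**Figure D5:**
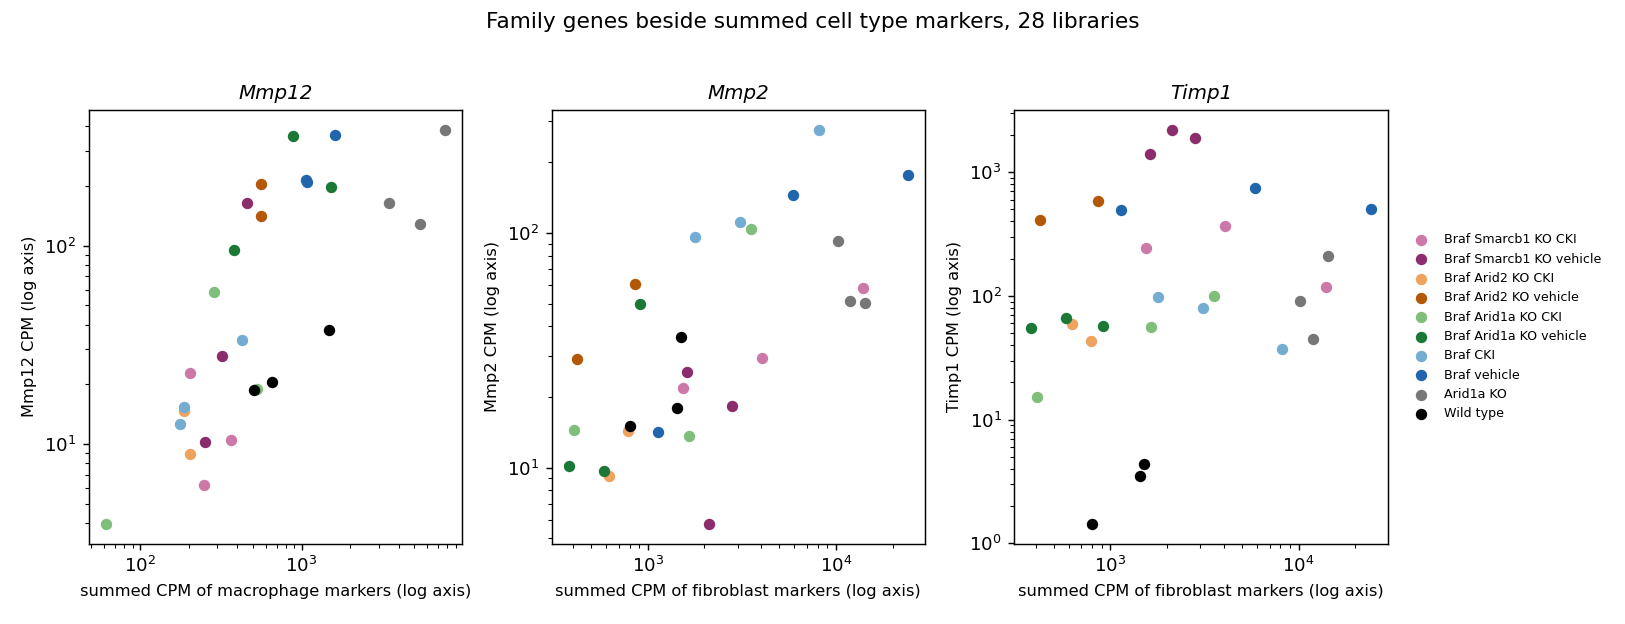
CPM of Mmp12 against the summed CPM of macrophage markers, and of Mmp2 and Timp1 against the summed CPM of fibroblast markers, in 28 libraries (points, coloured by group; all axes log). Mmp12 is lowest, 3.96 CPM, in the library with the lowest macrophage sum, and Timp1 is highest in Braf Smarcb1 KO vehicle, whose fibroblast sums lie in the middle of the range.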

How the data were processed

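RNA-seq counts per gene for mouse thyroid were used as deposited: whole-number counts, not normalized. The build mm9 and the tools DESeq2, HTSeq 0.6.1 and STAR 2.4 are named, without role or order, in the submitters' processing notes. Libraries came from a TruSeq RNA kit, per the labels, which do not state strand, so reads of overlapping or antisense genes cannot be told apart. Promoter sequences are RefSeq's for GRCm38.p6, another build than that of the counts, and are used only by gene name. The labels give 30 samples; 2 Braf Arid2 KO samples were not analysed here.

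Low genes were removed with edgeR's filterByExpr, libraries were scaled by TMM (factors 0.723 to 1.25), and all 28 libraries entered 1 quasi-likelihood fit with a term per group (edgeR 4.0.16, R 4.3.3). CPM use the same scaling. There were 13 comparisons of groups and 3 differences of response, plus 2 differences added after the levels were seen. The Benjamini-Hochberg adjustment ran over all 19016 genes. A group's floor is 3 counts, and counting intervals cover counting error only. Within groups, each of the 26 library pairs differed by more than counting error (chi-square divided by its degrees of freedom, 77 to 359). The code was tested on simulated data. The genes and lists were chosen with earlier results of these data known, by this rule: all 10 members, the 3 genes most like each, and up to 4 called genes per list with the smallest p. Alternatives were RLE size factors, no filter, a replicate block, fits on the compared groups alone, DESeq2 1.42.0 and leaving out each library.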

Additional observations from a re-analysis of the deposited data

Results flagged for a closer look

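The response to CKI differed between Braf Arid2 KO and Braf, by a test of the difference itself, for 2 genes. It was -4.70 ± 1.04 on the log2 scale (SE, adjusted p = 0.0144) for Mmp14, with 2 libraries per Braf Arid2 KO arm, and -2.68 ± 0.71 (SE, adjusted p = 0.0241) for Mmp11. The Mmp14 responses behind it were -3.57 in Braf Arid2 KO and 1.12 in Braf, and those of Mmp11 were -0.11 and 2.57. Neither call held in every run that left out 1 library. In this difference 4 of 10 genes induced by tissue dissociation were called negative, and the part of handling was not tested.

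The effect of Arid1a loss differed with and without the Braf allele, by a test of the difference itself, for 5 genes. That test was added after the levels were seen. With the allele minus without it, the difference on the log2 scale was -8.50 for Timp1, -6.18 for Mmp13, -5.81 for Mmp3, -3.77 for Mmp2 and -3.41 for Mmp12. The Timp1 and Mmp13 calls held without any 1 library, and those of Mmp3, Mmp2 and Mmp12 were lost without some single libraries. For Timp1 the 2 effects had opposite signs, -3.29 in Braf Arid1a KO against Braf and 5.22 in Arid1a KO against wild type, and both were called. For Mmp13 they were -2.93 and 3.24, and neither was called by itself. In the same difference 10 of 10 fibroblast, 7 of 9 macrophage and 6 of 7 leukocyte markers were called negative. Called positive were 2 of 6 thyroid follicular markers and 5 of 10 genes induced by tissue dissociation. The part of these cells and of handling in the difference was not tested. The groups with the allele had vehicle and those without it had no treatment. The preparation of wild type thyroids cannot be told apart from genotype.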

How the results depend on the processing

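No log2 fold change of a called gene changed sign under any alternative run. Under RLE size factors no call of the 9 genes was lost and 2 were gained, and without a filter none was lost and 7 were gained; DESeq2 lost none and gained 21. Counts of genes called are given below where they moved by more than 1.5 times.

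With DESeq2 the count was 7 in Braf vehicle against wild type (3 in the main analysis), 4 for CKI in Braf Arid1a KO (1), 4 for CKI in Braf Arid2 KO (2), 4 in Braf Arid1a KO against Braf with vehicle (2), 1 in Braf Arid1a KO against Braf with CKI (0), 3 in Braf Arid2 KO against Braf with CKI (1), 5 in Arid1a KO against wild type (3), 1 for the response of Braf Arid1a KO minus Braf (0) and 1 for Braf Arid2 KO minus Braf Smarcb1 KO (0). With no filter it was 3 for CKI in Braf Arid1a KO, 4 for CKI in Braf Arid2 KO and 1 for Braf Arid2 KO minus Braf Smarcb1 KO, and with RLE size factors 2 for CKI in Braf Arid1a KO. With only the groups compared it was 6 for CKI in Braf Arid2 KO, 0 for CKI in Braf Smarcb1 KO (3), 1 in Braf Smarcb1 KO against Braf with vehicle (3), 3 in Braf Arid2 KO against Braf with CKI, 6 in Arid1a KO against wild type and 4 in Braf Arid1a KO against Arid1a KO (2). The cause was not tested.

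With the replicate number as a replicate block the count was 0 for CKI in Braf Arid1a KO, 1 in Braf Arid2 KO against Braf with vehicle (0), 1 in Braf Smarcb1 KO against Braf with vehicle and 1 in Braf Smarcb1 KO against Braf with CKI (2). Deviations of same-numbered libraries from their group means correlated at -0.535 to 0.241, over 0.1 in 4 of 22 pairs. Whether same-numbered libraries share more than the number was not tested, as these values have no reference to be read against.

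Leaving out 1 library, the count ran from 3 to 5 in Braf vehicle against wild type, 0 to 2 for CKI in Braf Arid1a KO, 0 to 2 in Braf Arid2 KO, 1 to 2 in Braf Smarcb1 KO and 4 to 5 in Braf. It ran from 0 to 5 in Braf Smarcb1 KO against Braf with vehicle, 0 to 1 in Braf Arid2 KO against Braf with CKI, 1 to 2 in Braf Smarcb1 KO against Braf with CKI, 1 to 4 in Arid1a KO against wild type and 0 to 2 in Braf Arid1a KO against Arid1a KO. Among differences it ran from 0 to 1 for Braf Arid1a KO minus Braf, 0 to 2 for Braf Arid2 KO minus Braf, 0 to 1 for Braf Arid2 KO minus Braf Smarcb1 KO and 2 to 6 for Arid1a loss with minus without Braf.

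Mmp10, Mmp7 and the CKI levels of Mmp13 rest on few counts, which limits their fold changes.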

Other observations

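Outside the 10 genes, other proteinases of the matrix moved in both directions in Braf Smarcb1 KO thyroids. Of 11 other Mmp genes tested, 4 were higher and 1 lower in Braf Smarcb1 KO with CKI than in Braf with CKI, where 17.1% of all genes were called. With vehicle 4 were higher and 2 lower, where 28.6% of all genes were called. Those lower with vehicle were Mmp19 (log2 fold change -3.10, adjusted p = 0.000385) and Mmp15 (log2 fold change -2.33, adjusted p = 0.00143). Of 14 ADAM and ADAMTS genes, 4 were higher and 3 lower with vehicle. The membrane-bound Mmp16 averaged 74.3 ± 41.3 CPM in Braf Smarcb1 KO with CKI, against 2.55 ± 1.91 CPM in Braf with CKI (SD, n = 3 each; log2 fold change 4.86 ± 1.03 (SE), adjusted p = 0.00241 in edgeR's fit). Mmp25, known from leukocytes, averaged 12.7 ± 11.6 CPM in Braf Smarcb1 KO vehicle, against 1.53 ± 0.924 CPM in Braf vehicle (log2 fold change 3.04 ± 0.70 (SE), adjusted p = 0.00263). In that comparison 4 of 7 leukocyte markers fell. Of 7 neutrophil markers tested none was called (8.93 to 37.1 CPM in Braf Smarcb1 KO, 6.83 to 25.1 CPM in Braf). Adamts14, a procollagen-processing enzyme, averaged 21.9 ± 7.21 CPM in Braf Smarcb1 KO vehicle, against 0.502 ± 0.435 CPM in Braf vehicle (log2 fold change 5.40 ± 1.14 (SE), adjusted p = 0.00145).

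Mmp19 followed part of the pattern of Mmp12. It averaged 75.8 ± 49.4 CPM in Braf vehicle, against 7.14 ± 0.688 CPM in wild type (log2 fold change 3.41 ± 0.57 (SE), adjusted p = 0.000203), and 89.7 ± 62.0 CPM in Arid1a KO, against the same wild type libraries (log2 fold change 3.65 ± 0.57 (SE), adjusted p = 0.001). With CKI in Braf it averaged 14.4 ± 3.39 CPM, against 75.8 ± 49.4 CPM with vehicle (log2 fold change -2.40 ± 0.54 (SE), adjusted p = 0.00909).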
